A study of Mus musculus with 2 samples.

Results

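The chemokine system of the mouse was examined here as 59 protein-coding genes: 37 chemokines (23 of the CC class, 12 of the CXC class and the 2 genes Cx3cl1 and Xcl1) and 22 receptors, 4 of which are atypical receptors. Members were chosen by gene symbol alone (the Ccl, Cxcl, Cx3cl1, Xcl1, Ccr, Cxcr, Cx3cr1, Xcr1 and Ackr series), out of 43346 mouse genes and 21474 protein-coding genes in the tables. Cxcl11 is annotated as a polymorphic pseudogene and was therefore not a member. Pf4 and Ppbp are chemokines whose symbols fall outside the rule, and they are described apart from the members.

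Chemokines are small secreted proteins that bind glycosaminoglycans and form gradients along which cells move. They act through receptors with membrane-spanning helices, which couple to inhibitory G proteins and are then taken up with arrestins. Atypical receptors bind chemokines without coupling to G proteins and remove or move the ligand instead. In embryonic tissue the system guides blood vessel growth and brings in the first macrophages, and in later life it directs leukocytes through lymph and inflamed tissue.

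The tissue was lung of mouse embryos of strain B6NCrl at embryonic day 14.5, with no genotype or treatment given. There was 1 group with 2 libraries, numbered in the labels as separate biological replicates, and each was made from 10 ng of total RNA. One label calls the source a lung of pup 1 and another calls it pooled from both sexes, so how many embryos a library represents is not known, and both samples carry the same donor entry. The collection dates were 15 July for replicate 1 and 17 July for replicate 2. The p-values measure only the difference between these 2 samples, part of which may be technical.

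Summed expected counts, which are estimated read numbers that need not be whole, were 33601136 in replicate 1 and 34535168 in replicate 2. Levels are given in TPM, a length-corrected unit that allows genes to be compared within a library. Markers of lung epithelium (6 of 6), lung mesenchyme (7 of 7), blood vessel endothelium (7 of 7), lymphatic endothelium (6 of 6), mesothelium (5 of 5) and macrophages (11 of 11) reached TPM 1 in both libraries. Of the T cell, NK cell and innate lymphoid cell markers 1 of 8 did, and Cd3e, Cd3d and Ncr1 were at 0 counts in both. Of the B cell markers 1 of 5 did, and Pax5 was at 0 counts. The 2 libraries stood apart in heart muscle markers, whose summed TPM was 607 in replicate 1 and 117 in replicate 2, in neutrophil markers, at 49.9 and 8.62, and in liver markers, at 4.39 and 10.3. In bulk tissue, fewer cells of a type and less RNA per cell cannot be told apart.

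A minority of the system was expressed. A gene was counted as detected where each library gave it a TPM of at least 1, and 21 of 59 members were (35.6%), against 12637 of 21474 protein-coding genes (58.8%). The median member had a mean TPM of 0.30, against 4.10 for the median protein-coding gene. Ligands were detected in 16 of 37 cases and receptors in 5 of 22. Summed ligand TPM was 270 in replicate 1 and 296 in replicate 2, and summed receptor TPM was 46.8 and 45.4.

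The ligand signal was concentrated in few genes. Cxcl12, Ccl21a, Ccl11 and Ccl2 together held 67.9% of the ligand TPM in replicate 1 and 71.4% in replicate 2. Among receptors, Ackr3 alone held 40.8% and 40.1% of the TPM. When the 21 detected members were ordered by mean TPM, the ranges of the 2 libraries overlapped in 9 of the 20 neighbouring pairs, so the order is not firm for much of the list. The first overlap in that order was between Ccl7 and Cxcl15. Ccl21a and Ccl11 were separated only narrowly, by 46.51 TPM in replicate 1 of the former against 46.22 in replicate 2 of the latter.

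**Figure D1:**
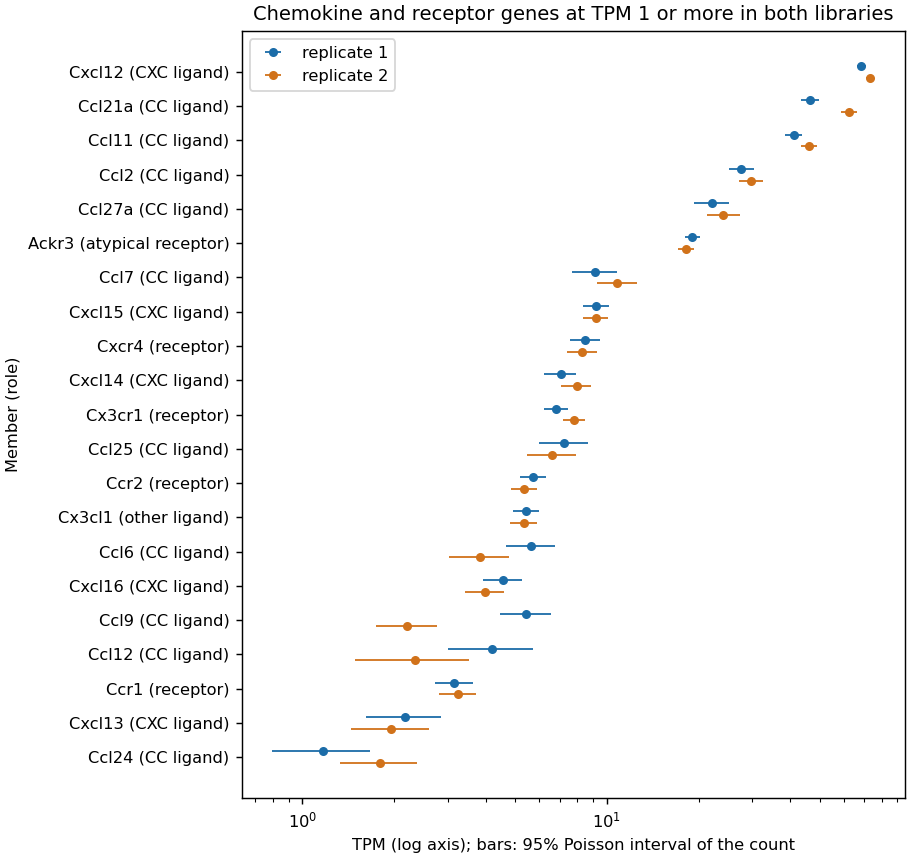
TPM (log axis) of the 21 chemokine and receptor genes detected in both libraries, ordered by mean, with 1 point per library and bars for the exact 95% Poisson interval of the count. Cxcl12 lies highest at 68.5 and 73.4 TPM, and Ccl6, Ccl9 and Ccl12 show the widest gaps towards replicate 1.

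Cxcl12, the chemokine that holds progenitor cells in place and guides vessel growth, was the highest member, at 68.54 TPM in replicate 1 and 73.36 in replicate 2 (71.0 ± 3.41, SD, n = 2; 3730 and 4049 counts). It lies on chromosome 6 at 117168535 to 117181367, plus strand. Its signalling receptor Cxcr4 was at 8.50 and 8.30 TPM (8.40 ± 0.14). Its atypical receptor Ackr3, which takes up Cxcl12 and so shapes its gradient, was at 19.08 and 18.20 TPM (18.6 ± 0.62). The scavenging receptor was thus above the signalling receptor in each library, and the libraries' ranges did not overlap. All 3 genes differed between libraries by less than 2-fold.

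Cxcl12 is made as several splice forms that share their start and differ in their last coding bases. The form with the shortest tail carried most of the signal: Cxcl12-202, with a coding sequence of 270 bases as in the alpha form, took 66.83% of the gene's TPM in replicate 1 and 65.49% in replicate 2. Cxcl12-203 (282 bases, the beta form) took 16.14% and 16.31%. Cxcl12-201 (360 bases, the gamma form, whose long basic tail binds heparan sulphate strongly) took 10.46% and 10.87%. A transcript with a retained intron, Cxcl12-204, took the other 6.57% and 7.33%. The order of the 4 forms was the same in both libraries. The sequences show what separates the forms: from coding base 238 to the stop codon, read 5′ to 3′ on the plus strand of GRCm38 and joined across introns, lower case marks bases shared by all 3 and capitals mark the tail of each form after the first 267 shared bases.
Cxcl12-202: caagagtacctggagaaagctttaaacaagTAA
Cxcl12-203: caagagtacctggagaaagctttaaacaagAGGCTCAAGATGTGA
Cxcl12-201: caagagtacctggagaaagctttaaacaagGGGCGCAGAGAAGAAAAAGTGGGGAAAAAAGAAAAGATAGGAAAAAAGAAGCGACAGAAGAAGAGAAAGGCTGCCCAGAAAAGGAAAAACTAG

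The Ccl21 chemokine is made by lymphatic endothelium and lymphoid stroma and draws dendritic cells and T cells into lymphatic vessels. Which gene copy each of these cells uses was not examined here. Ccl21a, one of its genes, was the second-highest member. It was at 46.51 TPM in replicate 1 and 62.39 in replicate 2 (54.5 ± 11.2, SD, n = 2; 800 and 1077 counts). The gene lies on chromosome 4 at 42772860 to 42773993, minus strand. Replicate 2 was higher by 0.37 on the log2 scale (95% interval 0.23 to 0.50; exact binomial test, adjusted p = 1.58e-06 over all genes tested). The 6 markers of lymphatic endothelium had a summed TPM of 106 and 108 and a median log2 ratio of -0.13. Singly they went both ways, from -0.54 in Reln and -0.37 in Prox1 to 0.14 in Mmrn1. At an adjusted p under 0.05 and at least 2-fold, 0 of 6 were called, against 1.14% of all genes tested. The part of these markers in the Ccl21a difference was not tested.

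Ccl21a has near-identical copies, a set picked out here after the values had been seen, and the reads of the copies were poorly separated. On chromosome 4 the annotation holds 4 near-identical genes: the member Ccl21b and the genes Gm21541 (Ccl21d in RefSeq), Gm13304 and Gm10591, which the symbol rule leaves out. All 4 share 1 coding sequence of 402 bases, and it differs from that of Ccl21a at 2 positions, T84A and C194T, counted from 1 at the A of the start codon with the base of Ccl21a first. The stretch that holds both positions, coding bases 74 to 204, is shown 5′ to 3′ in the coding sense, joined across an intron, with the 2 differing bases in capitals. In GRCm38 it spans chr4:42773533-42773757 on the minus strand in Ccl21a and chr4:41903846-41904070 on the plus strand in Gm21541.
Ccl21a: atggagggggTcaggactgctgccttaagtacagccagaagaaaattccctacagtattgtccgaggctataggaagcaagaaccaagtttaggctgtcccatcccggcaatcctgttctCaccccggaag
Gm21541: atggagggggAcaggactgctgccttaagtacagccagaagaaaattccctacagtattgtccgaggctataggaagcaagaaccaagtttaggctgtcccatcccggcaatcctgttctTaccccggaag

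Gm21541 received 25.26 TPM in replicate 1 and 28.60 in replicate 2, with 434 and 494 counts. Its deposited posterior SD, the spread of the count estimate that arises when reads fit more than 1 gene, was 68.6 and 42.2 counts. For Ccl21a the posterior SD was 19.1 and 21.1 counts, which is 2.39% and 1.96% of its count, so the reads assigned to Ccl21a were better resolved than those of the copies. Gm13304 was given 80.9 counts in replicate 1 and 0 in replicate 2, with posterior SDs of 67.8 and 33.9. Ccl21b and Gm10591 have identical transcripts in the annotation and received identical estimates, 0.02 counts in replicate 1 and 14.22 in replicate 2, so the tables do not separate them at all.

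Ccl21b was the 1 member whose posterior SD exceeded 50% of a count of at least 10, at 15.3 for 14.2 counts in replicate 2. Summed over the 5 genes, the Ccl21 signal was 1315 and 1599 counts, or 76.7 and 95.2 TPM (85.9 ± 13.1, SD, n = 2). The sum exceeded Cxcl12 in both libraries. Replicate 2 was higher by 0.22 in this sum (log2, 95% interval 0.11 to 0.33), and Ccl21a held 60.6% and 65.5% of it.

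The upstream sequence of the copies is shown because 2 of them carry most of the signal. RefSeq promoter windows (GRCm38.p6) of Ccl21a and Ccl21d differed at 2 of 299 bases compared. Both hold the letters CATAAATA, in capitals below, starting 31 bases before the gene start in Ccl21a and 32 in Ccl21d. Each sequence covers 60 bases, 5′ to 3′ in the direction of the gene, at chr4:42773992-42774051 on the minus strand and chr4:41903553-41903612 on the plus strand.
Ccl21a: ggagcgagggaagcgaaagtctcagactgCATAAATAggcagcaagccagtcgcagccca
Ccl21d: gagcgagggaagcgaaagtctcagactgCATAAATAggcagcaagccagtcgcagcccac

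**Figure D2:**
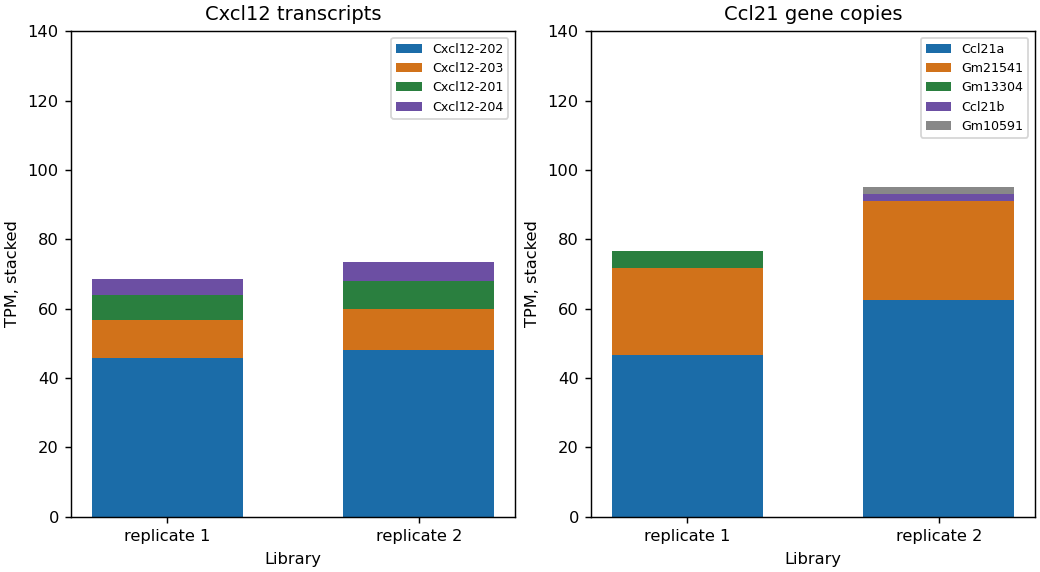
Stacked TPM per library of the 4 Cxcl12 transcripts (left) and of the 5 Ccl21 gene copies (right), on the same linear axis from 0. The Cxcl12 forms keep their proportions between libraries, while Gm13304 appears in replicate 1 alone and Ccl21b and Gm10591 in replicate 2 alone.

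A promoter window was found for 45 of the 59 members (27 ligands and 18 receptors) among 27025 genes, and not for Ccl2, Ccl7 or Ccl11. The TATA box letters TATAAA, on the coding strand with a start 20 to 40 bases before the gene start, occurred in 4 of 27 ligands (14.8%), 1 of 18 receptors (5.56%) and 2.41% of all genes. The ligands were Ccl12, Ccl8, Cxcl15 and Cxcl3, and the receptor was Cxcr4. The shorter ATAAA, which is contained in TATAAA, occurred in 11 of 27 ligands (40.7%), 1 of 18 receptors and 5.09% of all genes. CATAAATA, which also contains ATAAA, occurred in 0.0962% of all genes. ATAAA and CATAAATA were chosen after the members' windows had been viewed. On the other strand TATAAA (read as TTTATA) occurred in no ligand, in Cxcr4 and in 0.77% of all genes, and ATAAA (read as TTTAT) in no ligand, in Cxcr4 and in 2.63% of all genes. The 11 ligands with ATAAA included detected genes (Ccl21a, Ccl12 and Cxcl15) and genes with at most 1 count in a library (Ccl1, Xcl1 and Cxcl10).

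The next highest ligands came from a group of neighbouring genes for monocyte and eosinophil chemokines on chromosome 11 (82035571 to 82305690). Ccl11, the eotaxin that attracts eosinophils, was at 41.05 and 46.22 TPM (43.6 ± 3.66, SD, n = 2; 900 and 1017 counts). Ccl2, the main attractant of monocytes, was at 27.66 and 29.74 TPM (28.7 ± 1.47). Ccl7, a monocyte chemokine that shares receptors with Ccl2, was at 9.13 and 10.82 TPM (9.98 ± 1.20). These 3 genes were each slightly higher in replicate 2, and the 95% interval of each log2 ratio contained 0.

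Ccl12, the fourth expressed gene of that group and also a ligand of Ccr2, was at 4.20 TPM in replicate 1 and 2.35 in replicate 2, on 41 and 23 counts. Its ratio was -0.88 on the log2 scale (95% interval -1.70 to -0.13; exact binomial test, adjusted p = 0.0683), which did not pass the threshold. The remaining genes of the group, Ccl8 and Ccl1, had at most 1 count in a library. Mean levels within the group thus ran from 43.6 TPM for Ccl11 to 0 for Ccl1. Ccr2, the receptor of Ccl2, Ccl7 and Ccl12 on monocytes, was at 5.71 and 5.33 TPM (5.52 ± 0.27).

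The eosinophil arm differed from the monocyte arm on the receptor side. Ccr3, the receptor for Ccl11 and Ccl24, had 1 count in each library (0.01 TPM). Ccl24, the second eotaxin, was at 1.17 and 1.80 TPM (31 and 48 counts), the lowest of the detected members. Of the basophil, eosinophil and mast cell markers 2 of 8 were detected, Cpa3 (3.49 and 2.68 TPM) and Kit (30.03 and 34.54 TPM). Kit is not restricted to these cells. Mcpt8 reached TPM 1 in replicate 1 alone (2.19 and 0.47 TPM). The eosinophil genes Prg2, Prg3 and Epx had at most 3 counts in a library. Ccl11 was thus at 41.05 TPM or more in tissue where its receptor and the eosinophil genes were near 0.

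A second group on chromosome 11 (83525778 to 83664683) holds Ccl5, Ccl9, Ccl6, Ccl3 and Ccl4, CC chemokines that attract myeloid cells and lymphocytes. Ccl6, which mouse macrophages and other myeloid cells make, was at 5.63 and 3.82 TPM on 120 and 80 counts. It was lower in replicate 2 by a log2 ratio of -0.64 (95% interval -1.07 to -0.23; exact binomial test, adjusted p = 0.0121), a 1.56-fold difference and under the 2-fold threshold. Ccl9, its close relative, was at 5.43 and 2.21 TPM on 106 and 78 counts, with a log2 ratio of -0.50 (95% interval -0.95 to -0.07; exact binomial test, adjusted p = 0.0822). The macrophage markers had a median log2 ratio of -0.20 with 0 of 11 called, against 1.14% of all genes tested. Their single ratios ran from -0.77 in Aif1 (exact binomial test, adjusted p = 0.00194) to 0.05 in Spi1. Like Ccl6, the markers Aif1, Fcgr3, Lyz2, Csf1r, C1qb and Mrc1 were lower in replicate 2 and passed the adjusted p, under 2-fold. Cd68, Adgre1, C1qa, C1qc and Spi1 did not pass it. The summed TPM of these markers was 258 and 222. The neutrophil markers S100a8, S100a9 and Ngp were called lower in replicate 2. The part of either cell type in the Ccl6 difference was not tested.

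For both genes a transcript annotated as non-coding led the estimates. Ccl6-202, a retained intron, took 57.96% of the gene's TPM in replicate 1 and 61.23% in replicate 2. Ccl9-202, a processed transcript of 398 nt, took 77.88% and 50.95% on only 28.2 and 7.53 counts. The coding transcript Ccl9-201, which is 3006 nt long, had 1.20 and 1.08 TPM on 77.8 and 70.5 counts. The gap in the gene's TPM was thus carried by the short transcript, and the coding transcript was nearly level. Ccr1, their receptor on myeloid cells, was at 3.15 and 3.24 TPM (3.20 ± 0.06, SD, n = 2). The other members of the group were not detected: Ccl4 had 13 and 6 counts, Ccl3 had 6 and 4, and Ccl5 had 0 and 5.

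Cx3cl1 and Cx3cr1 form an exclusive pair: the ligand is anchored in the membrane of endothelium, epithelium and neurons, and the receptor marks macrophages and monocytes. Cx3cl1 was at 5.43 and 5.33 TPM (5.38 ± 0.07) and Cx3cr1 at 6.79 and 7.82 TPM (7.31 ± 0.73). The receptor was above the ligand in each library, by less than 2-fold, and both were detected on 361 counts or more in each library. Cxcl16, the other chemokine with a membrane anchor, was at 4.56 and 3.98 TPM, while its receptor Cxcr6, found on T and NK cells, was at 0.22 and 0.20. In Cxcl16 the leading transcript differed between libraries: Cxcl16-202, annotated for nonsense-mediated decay, took 55.55% and 38.06%, and the coding Cxcl16-201 took 44.45% and 61.94%. Exons of Cxcl16 and of Zmynd15 on the opposite strand share 552 bases, and reads from the 2 genes there may not be separated, with Zmynd15 at 0.51 and 0.22 TPM.

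Several epithelial and homeostatic chemokines were expressed with little or no receptor. Ccl27a, which keratinocytes make in adult skin, was at 22.13 and 24.13 TPM (23.1 ± 1.41, SD, n = 2), and its receptor Ccr10 had 2 and 3 counts. The gene has 20 annotated transcripts, and the coding Ccl27a-206 led with 47.66% and 37.56%. Ccl25, known from thymus and gut epithelium, was at 7.23 and 6.61 TPM (6.92 ± 0.44), and its receptor Ccr9 had 6 counts in each library. Of the thymus epithelium markers 2 of 5 were detected, Prss16 (1.38 and 1.70 TPM) and Cldn4 (33.0 and 34.3 TPM). Aire was at 0.74 and 1.19 TPM, and Foxn1 and Psmb11 had at most 1 count in a library.

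The transcript shares of Ccl25 differed between the libraries. Ccl25-201, a coding form of 1058 nt, took 44.61% in replicate 1 and 0% in replicate 2, whereas Ccl25-208, annotated for nonsense-mediated decay and 1061 nt long, took 0% and 49.73%. By the deposited posterior means the same shares were 34.3% and 11.5% for Ccl25-201 and 6.74% and 32.1% for Ccl25-208, a smaller swing in the same direction. The gene as a whole was nearly level, on 116 and 114 counts. Its exons share 204 bases (2.74% of its exon bases) with Elavl1 on the opposite strand, which was at 83.7 and 88.0 TPM, so reads there may not be separated, and their part in the level and shares of Ccl25 was not tested. Of the 13 tested members with more than 1 transcript, 10 kept the same leading transcript in both libraries, and Ccl25, Cxcl16 and Ccr2 did not. In Ccr2 all 4 forms are coding, and the leading pair lay close together, with Ccr2-201 at 42.00% and 39.21% and Ccr2-202 at 41.36% and 43.82%.

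Cxcl15, a mouse chemokine known from lung epithelium and also called lungkine, was at 9.20 and 9.19 TPM (9.20 ± 0.01). It was the sole detected gene of 5 in its group on chromosome 5 (90759360 to 90905938), where Cxcl1, Cxcl2, Cxcl3 and Cxcl5, the attractants of neutrophils through Cxcr2, were at 0.95 TPM or less in each library. Cxcr2 had 2 and 3 counts. Cxcl14, a chemokine of epithelia and stroma whose receptor is debated, was at 7.05 and 7.95 TPM (7.50 ± 0.64). Cxcl13, which organises B cell follicles, was at 2.17 and 1.96 TPM on 52 and 47 counts. Its receptor Cxcr5 had 2 and 0 counts.

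In most of the ligand and receptor pairs listed here neither gene was detected, and the ligand was detected alone more often than the receptor. These shares depend on which pairs were listed. Several genes occur in more than 1 pair, so the pairs are not independent. Of 44 pairs among the members, written from textbook knowledge, both genes were detected in 8, the ligand alone in 11, the receptor alone in 1 and neither in 24. The 8 complete pairs were Cxcl12 with Cxcr4 and with Ackr3, Cx3cl1 with Cx3cr1, Ccl2, Ccl7 and Ccl12 with Ccr2, and Ccl6 and Ccl9 with Ccr1. Those receptors are known from endothelium, stroma and myeloid cells, among others, and the tissue levels do not assign them to any cell. Among the pairs listed, the receptor without its ligand was Ccr1 in its pair with Ccl3.

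The receptors missing from the 11 pairs were Ccr3, Ccr7, Ccr9, Ccr10, Cxcr5 and Cxcr6, which lymphocytes, dendritic cells and eosinophils carry, and the atypical receptors Ackr1, Ackr2 and Ackr4. Of the dendritic cell markers 3 of 6 were detected, Zbtb46 (12.2 and 11.8 TPM), Batf3 (11.8 and 11.4) and H2-Ab1 (1.98 and 2.29). Flt3, Clec9a and Siglech were below TPM 1 in each library. Ccr7, the receptor of Ccl21a on T cells and mature dendritic cells, was at 0.24 and 0.36 TPM on 10 and 15 counts. Ackr4, the scavenger of Ccl21a and Ccl25, was at 0.24 and 0.27 TPM. Ackr1, which carries chemokines across vessel walls, was at 0.64 and 0.43 TPM, and Ackr2, which degrades inflammatory CC chemokines such as Ccl2, was at 0.58 and 0.38 TPM. Exons of Ackr1 and Cadm3 share 361 bases on the same strand, and those of Ackr4 and Acad11 share 479 on opposite strands. Bulk levels do not show which cells held a ligand or a receptor, nor whether 2 genes of a pair were close to each other in the tissue.

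**Figure D3:**
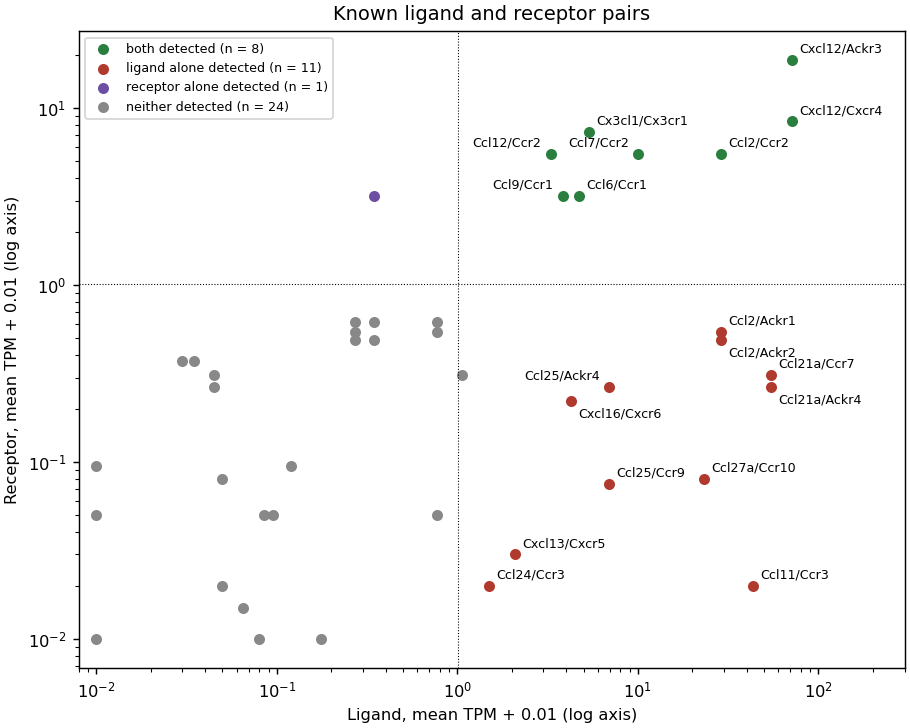
Mean TPM + 0.01 of the ligand (x, log axis) against that of its receptor (y, log axis) for 44 pairs, with dotted lines at TPM 1 and a label for each detected pair or ligand. The 8 pairs with both genes detected lie at the upper right and 11 at the lower right, where Ccl11 with Ccr3 is the most unequal. The grey point just right of the vertical line is Ccl21b with Ccr7, since Ccl21b had 0 TPM in replicate 1.

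Of the 38 members that were not detected, 8 had 0 counts in both libraries: Ccl1, Ccl22, Ccl26, Ccl27b, Ccr4, Ccr6, Cxcl2 and Cxcr1. A count of 0 allows up to 3 counts, which over all members corresponds to at most 0.735 TPM in replicate 1 and 0.732 in replicate 2. Under 10 counts in both libraries were 29 members. Among them were Cxcl9 and Cxcl10, the interferon-induced ligands of Cxcr3, with at most 3 counts in a library, and Ccl19, the second ligand of Ccr7, with 1 and 0. Closest to the level for detection were Ccl24 above it and, below it, among others, Ccl21b (0 and 2.10 TPM), Cxcl1 (0.95 and 0.58 TPM) and Ccl4 (1.04 and 0.48).

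Neighbouring members often differed widely in level. With a gap of at most 250 kb, 10 groups of neighbours held 37 members and 22 members stood alone. In a group of receptor genes on chromosome 9, Ccr1 and Ccr2 were detected and Ccr9, Cxcr6, Xcr1 and Ccr3 were not. Ccl21a neighbours Ccl19 and Ccl27b, at 1 count or less in each library. Cxcl12 and Ackr3, the highest ligand and the highest receptor, both stood alone.

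Differences between the 2 libraries were small in most members. Genes with a mean TPM of 1 or more were tested, and a gene was called at an adjusted p under 0.05 and at least 2-fold. Of the 22 members tested, 1 was called, Ccl21b, against 169 of 14870 genes (1.14%), with 53 higher in replicate 2 (0.356%) and 116 lower (0.78%). Ccl21b passed the minimum through replicate 2 alone, and its 0.02 and 14.22 counts (exact binomial test, adjusted p = 0.00142) lie within 2 combined posterior SDs of each other. Among the 21 detected members 0 were called. With no minimum on TPM, 2 members were called, against 538 of 24179 genes with any count (2.23%).

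At any fold, 3 members passed the adjusted p (Ccl21a, Ccl6 and Ccl21b), against 22.5% of all genes tested. The median log2 ratio of the tested members was -0.03, against -0.0016 for all genes tested. By scaled counts, 19 of the 21 detected members lay within 1.5-fold, the exceptions being Ccl6 and Ccl12. By TPM, Ccl12 (4.20 and 2.35), Ccl9 (5.43 and 2.21) and Ccl24 (1.17 and 1.80) differed by more than 1.5-fold, and Ccl6 (5.63 and 3.82) did not. The 95% interval of the log2 ratio contained 0 in 16, lay above 0 in Ccl21a and lay below 0 in Ackr3, Ccl6, Ccl9 and Ccl12. The binomial test compares these 2 libraries and not conditions, and it covers counting error alone.

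**Figure D4:**
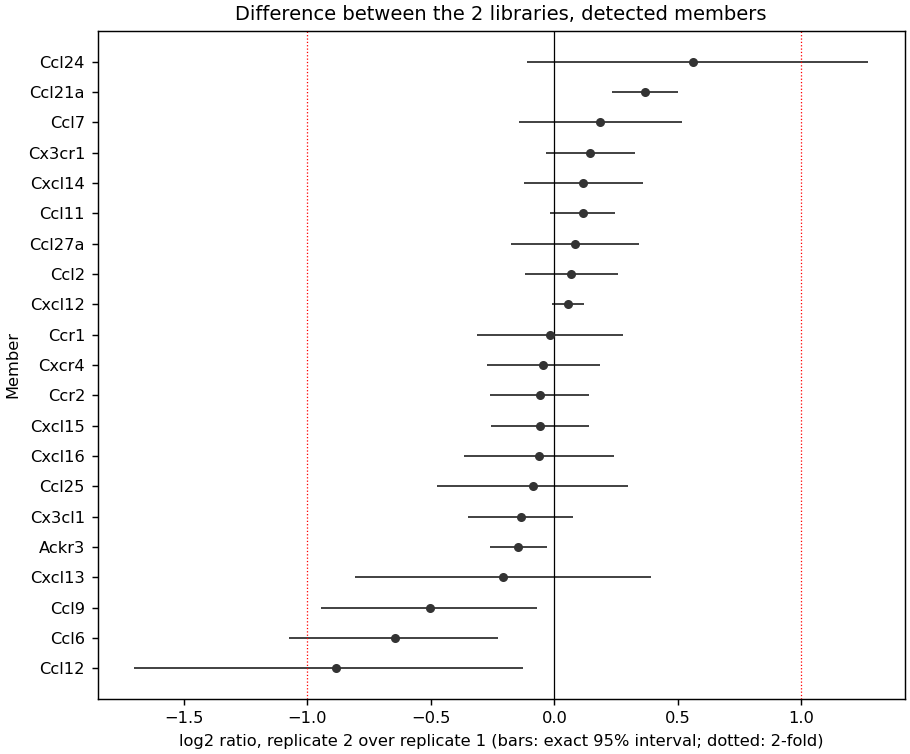
Log2 ratio of replicate 2 over replicate 1 for the 21 detected members, with the exact 95% interval as bars and dotted lines at 2-fold. Ccl21a lies highest among the intervals that leave 0 out, at 0.37, and Ccl12, Ccl6 and Ccl9 lie lowest at -0.88, -0.64 and -0.50.

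The genes that act after the receptors were mostly detected. In the lists examined, of 7 to 13 tested genes each, 0 were called between the libraries, against 1.14% of all genes tested. At that share, 0 in such short lists does not set them apart. Of the G protein, arrestin and receptor kinase genes 13 of 13 were detected, led by Gng5 (790 and 755 TPM), Gnb1 (448 and 472) and Gnb2 (325 and 357). The general migration genes were detected in 13 of 13 cases, led by Cdc42 (544 and 557 TPM), Rac1 (354 and 351) and Rhoa (250 and 267), the small GTPases that move the cell front and rear. Of the genes listed for leukocyte migration signalling 12 of 17 were detected, led by Elmo1 (33.0 and 33.8 TPM), Coro1a (23.1 and 23.8) and Prex1 (11.1 and 10.6). Elmo1 and Prex1 are not restricted to leukocytes. Below Coro1a, other genes of the list lay at several levels. Among them were Fermt3 (6.45 and 6.43 TPM), Rac2 (4.60 and 4.29), Vav1 (2.16 and 2.15), Dock2 (1.00 and 1.19) and Pik3r5 (0.34 and 0.24). Of the RGS genes, which shorten G protein signals, 7 of 10 were detected, led by Rgs2 (76.7 and 71.3 TPM), Rgs19 (73.2 and 73.4) and Rgs3 (30.3 and 29.4).

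Enzymes that cut chemokines were detected in 7 of 9 cases, led by Mmp2 (185 and 187 TPM), Mmp14 (138 and 145) and Adam10 (67.5 and 64.7), the last of which sheds Cx3cl1 and Cxcl16 from the membrane. The leukocyte proteases Ctsg and Mmp9 were at 0.20 TPM or less in each library. Of 14 chemokine-related genes outside the symbol rule 11 were detected and Ccr1l1 was at 0 counts. Their highest were Mif (1635 and 1871 TPM), a cytokine that can bind Cxcr4, Cmtm3 (113 and 123) and Pf4 (45.1 and 47.4), the platelet chemokine. Pf4 thus lay between Ccl21a and Ccl2 in level in each library.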

How the data were processed

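RNA of 2 lung libraries was analysed from the gene and transcript tables that the authors deposited. Their columns, per the file headers, are an expected count, TPM, the percent of a gene's TPM per transcript, and posterior means. The posterior standard deviation of a count, in reads, was used as the authors deposited it, as a score of how firmly reads were assigned. The deposited read-me files name mm10 and GENCODE release M4. No source used here gives the aligner, quantification program, strand setting or molecular identifiers. Intervals and floors therefore cover counting error only. Names, types and coordinates (1-based) came from GENCODE M21 on GRCm38, matched by identifier for 42462 of 43346 genes. Promoters came from RefSeq GRCm38.p6.

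After rounding, expected counts were scaled by TMM in edgeR 4.0.16 under R 4.3.3, using 14870 genes with mean TPM of 1 or more. Each gene was compared by an exact two-sided binomial test of the 2 counts (scipy 1.17.1), with Benjamini-Hochberg adjustment over all of them, and 0.5 was added to each count for log2 ratios. The code was tested on simulated data. Alternatives were DESeq2 1.42.0 size factors, spike-in scaling, edgeR's exact test at a common dispersion, no minimum, 2 added to each count, posterior means, and detection at TPM 0.5 or 2. Members of mean TPM 1 or more are named with values. Lower members are named where they pair with a named one, were called or are near-identical copies, and pathway lists by their 3 highest. Others were named after their values were seen. Members, lists, pairs and tests were chosen with earlier results of these data known. Values of some genes are not reported here.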

Additional observations from a re-analysis of the deposited data

How the results depend on the processing

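The number of called members was 1 with DESeq2 size factors, spike-in scaling and edgeR's exact test, as in the main test. It was 2 with no minimum on TPM. It was 0 with posterior mean counts and 0 without members closer than 2 combined posterior SDs, a rule chosen after seeing the data, so the call of Ccl21b depends on the count estimate. The median member log2 ratio was 0.31 with spike-in scaling, which moved the median gene by 0.34. With posterior mean TPM, 17 of 22 levels moved by less than the SD of the 2 libraries, and 5 moved more (Cxcl15 to 8.98, Ccl25 to 7.47, Cx3cl1 to 5.93, Ccr1 to 3.13 and Ccl21b to 2.57). Leaving out a replicate leaves 1 library, so no ratio or call could be made, and 22 or 23 members reached TPM 1 in the library that was left. No paired analysis was possible because the design has 1 group. Depth limits members under 10 counts.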
